A study of Mus musculus with 10 samples.

Results

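The 35 genes of fatty acid oxidation and ketogenesis followed here cover the route from the carnitine shuttle through mitochondrial and peroxisomal beta-oxidation to ketone bodies. They were chosen by gene name on the array, over all 5 groups of arrays, from 27554 gene names. Older names (Dci for Eci1, Peci for Eci2) were accepted. All 35 were found, by 47 probes, and all 35 passed the filter on dim probes, among 19049 genes tested. The probe that stood for each gene was well above background on all 10 arrays.

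RNA came from the ileum, the end of the small bowel, of C57BL/6 mice 6 to 8 weeks old, with 2 arrays in each group. Sox2 and Oct4 are transcription factors of pluripotent cells, and Sox2 also acts in the stomach, oesophagus and other stratified epithelia. The TetON mice carry a transgene that is switched on by doxycycline (DOX) through the regulator rtTA. TetON-Sox2 mice were left untreated (Sox2 -DOX) or given DOX (Sox2 +DOX), and DOX was also given to rtTA mice without the Sox2 transgene (rtTA +DOX), to TetON-Oct4 mice (Oct4 +DOX) and to mice with both transgenes (Sox2xOct4 +DOX). The dose was 2 mg/ml in water with 1% sucrose for 2 days, so Sox2 +DOX differed from Sox2 -DOX in DOX and sucrose as well as in Sox2. The labels do not name the promoter that drives rtTA, so the cells that express the transgenes are not given. The ileum was chopped whole, so epithelium, muscle and any attached fat were measured together, and fewer cells of a type cannot be told apart from less RNA per cell.

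Fatty acids are oxidised after activation to acyl-CoA. The carnitine shuttle carries long chains into mitochondria, where each turn of the beta-oxidation spiral removes an acetyl unit and passes electrons to the electron transfer flavoprotein. Peroxisomes shorten very long and branched chains and bile acid precursors with their own set of enzymes, and acyl-CoA thioesterases release the free acid again. Many of these genes are targets of PPAR alpha, a nuclear receptor activated by fatty acids, and in the small intestine they serve enterocytes, which absorb dietary fat. Mitochondria can also turn acetyl-CoA into ketone bodies, which other tissues use as fuel.

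Levels are given as the log2 of the background-subtracted signal minus the 75th percentile of the array, so 0 is that percentile itself. They serve to compare arrays for 1 gene and not genes with each other. The 2 Sox2 groups lay on slide 1, rtTA +DOX and Sox2xOct4 +DOX on slide 2 and Oct4 +DOX on slide 3, and a comparison between slides cannot be told apart from the slide. The 75th percentile stood at a signal of 544 to 1613 and the share of probes well above background at 63.5 to 70.5%. The probe for Sox2 was not well above background on any array and therefore does not check the transgene, whereas that for Pou5f1, the gene of Oct4, was well above background on the 4 arrays of mice with the Oct4 transgene and no others. The Y-linked gene Eif2s3y was at -9.23 to -7.86 on slide 2 and Oct4 +DOX replicate 2 and at 1.61 to 2.10 on the other 5 arrays, so the sexes were the same within each of slides 1 and 2 and mixed in Oct4 +DOX. The titles number replicas of an animal and do not state that each is another mouse, so the spread behind each p-value is that between these arrays and may be technical.

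RefSeq promoter windows (build GRCm38.p6) were matched for 29 of the 35 genes, as 31 windows. The 250 bases before the start site are printed for Acot1 and Acot4, neighbouring thioesterase genes that moved in opposite directions below, and for Acaa1b and Pdk4, a peroxisomal gene that fell and a mitochondrial kinase gene that rose. They are written 5' to 3' on the strand of the gene, in lower case. Capitals mark a match to DR1, the element bound by PPAR alpha with its partner RXR, searched as the letters AGGTCA, any 1 base and AGGTCA again, with up to 2 mismatches on either strand.
Acot1 chr12:84009252-84009501 (+ strand): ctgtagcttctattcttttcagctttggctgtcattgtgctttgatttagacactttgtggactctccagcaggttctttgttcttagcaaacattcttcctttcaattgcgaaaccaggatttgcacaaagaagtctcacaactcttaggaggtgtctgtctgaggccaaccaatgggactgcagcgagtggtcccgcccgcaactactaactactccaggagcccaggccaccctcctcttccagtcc
Acot4 chr12:84038129-84038378 (+ strand): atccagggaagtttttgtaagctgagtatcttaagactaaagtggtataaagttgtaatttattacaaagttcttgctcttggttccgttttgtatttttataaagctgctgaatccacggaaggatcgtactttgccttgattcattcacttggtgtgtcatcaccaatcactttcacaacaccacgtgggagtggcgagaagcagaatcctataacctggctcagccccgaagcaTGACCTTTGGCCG
Acaa1b chr9:119157094-119157343 (- strand): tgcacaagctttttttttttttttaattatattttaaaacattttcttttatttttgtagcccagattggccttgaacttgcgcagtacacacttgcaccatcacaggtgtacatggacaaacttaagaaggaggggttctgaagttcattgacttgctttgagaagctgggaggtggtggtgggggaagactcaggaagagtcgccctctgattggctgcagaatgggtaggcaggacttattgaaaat
Pdk4 chr6:5496279-5496528 (- strand): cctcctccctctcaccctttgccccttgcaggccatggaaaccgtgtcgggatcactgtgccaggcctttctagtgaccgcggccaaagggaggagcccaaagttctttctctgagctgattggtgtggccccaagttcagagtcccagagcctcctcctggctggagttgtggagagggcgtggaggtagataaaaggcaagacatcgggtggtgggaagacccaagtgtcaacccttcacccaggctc

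The capitals in the Acot4 window lie at its end, next to the start site, and match the motif on the opposite strand. Among the 31 windows of the 35 genes, counted with the 50 bases after the start, 4 held such a match, 12.9% against 3.86% of 32851 promoters of the same length. They belong to Acot4, Acox2, Etfa and Slc25a20. AGGTCA by itself, which overlaps with that element and was searched without mismatches, occurred in 12.9% of the 31 windows and 16.26% of all. ATTGTT, the core bound by Sox proteins, and ATGCAAAT, the octamer bound by Oct proteins, had no match in the 31 windows and were present in 10.72% and 1.74% of all promoters. Both consist mostly of A and T, and the median share of G and C before the start was 58.8% in the 31 windows against 52.4% over all. The windows of Acox2 overlap each other, as do those of Hadha and Hadhb. A lack of these motifs beyond base content was not tested. Across their 250 bases, the windows of Acot1 and Acot4 were 51.9% identical after alignment, and the median over 463 pairs of the windows was 49.5%.

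The first comparison, Sox2 +DOX against Sox2 -DOX, lies within slide 1 and asks what induction of Sox2 does. Acot1, a cytosolic thioesterase, rose 5.60-fold. Its neighbour Acot4, a peroxisomal thioesterase, fell 4.24-fold, and 3 other peroxisomal genes fell: Acox2 by 3.76-fold, Acaa1b by 3.20-fold and Acaa1a by 2.30-fold. No gene of the mitochondrial spiral, electron transfer or ketone body metabolism passed the test. In all, 1 of 35 genes rose and 4 fell at an adjusted p under 0.05 in limma, with Benjamini-Hochberg adjustment over all genes, which is 14.3% of the 35 against 7.82% of all genes tested (3.03% rose and 4.78% fell).

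Acot1 stood at -0.80 and -1.40 on the Sox2 -DOX arrays and at 1.82 and 0.95 on the Sox2 +DOX arrays. The groups did not overlap, and the log2 change was 2.49 ± 0.51 (SE, n = 2 per group; limma, adjusted p = 0.027). Acot4 was at 1.84 and 1.20 without DOX and at -0.73 and -0.39 with it. That is a log2 change of -2.08 ± 0.43 (limma, adjusted p = 0.027), and a second probe for Acot4 gave -1.83 (adjusted p = 0.040 with every probe tested by itself). Acot2, the mitochondrial thioesterase gene on the other side of Acot1, overlapped between the groups, with a log2 change of -0.31 ± 0.50. The probes of Acot1 and Acot2 lie 24.3 kb apart and those of Acot1 and Acot4 26.3 kb apart on chromosome 12 (build mm8). Acot1 and Acot2 are close paralogs, and binding of the RNA of one to the probe of the other was not tested.

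The peroxisomal genes made up most of the falls. Acox2, an oxidase for bile acid intermediates, stood at 0.97 and 0.81 without DOX and at -1.61 and -0.44 with DOX. Its log2 change was -1.91 ± 0.47 (limma, adjusted p = 0.045). Acaa1b, a peroxisomal thiolase, was at 3.37 and 3.22 without DOX and at 1.44 and 1.80 with it, a log2 change of -1.68 ± 0.35 (adjusted p = 0.029). Its paralog Acaa1a went from 6.39 and 6.06 to 4.76 and 5.29, a log2 change of -1.20 ± 0.29 (adjusted p = 0.046). In each of these genes both Sox2 +DOX arrays lay below both Sox2 -DOX arrays, and replicate 1 was the lower of the Sox2 +DOX arrays. The 3 probes of Acaa1a gave log2 changes of -1.20, -1.14 and -1.19, none of them past the threshold when every probe was tested by itself.

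Of the 9 genes counted under the peroxisome, with Acot4 among the thioesterases instead, 3 fell and none rose. The median log2 change of the 9 was -0.77 against -0.10 over all genes tested. The 6 that did not pass the test included Ehhadh, the bifunctional enzyme of the classical peroxisomal pathway (-0.94 ± 0.38), Decr2, a reductase for unsaturated chains (-0.77 ± 0.31), Pex11a, a factor of peroxisome division (-0.65 ± 0.35), and Hsd17b4, the bifunctional enzyme of the branched-chain pathway (-0.35 ± 0.39). Eci2, an isomerase for unsaturated chains (0.22 ± 0.29), and Crot, which links shortened chains to carnitine for export (0.82 ± 0.38), had positive values. All 9 separated the groups without overlap, 7 lower and 2 higher with Sox2, while 36.6% of all genes were lower and 29.8% higher without overlap.

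**Figure D1:**
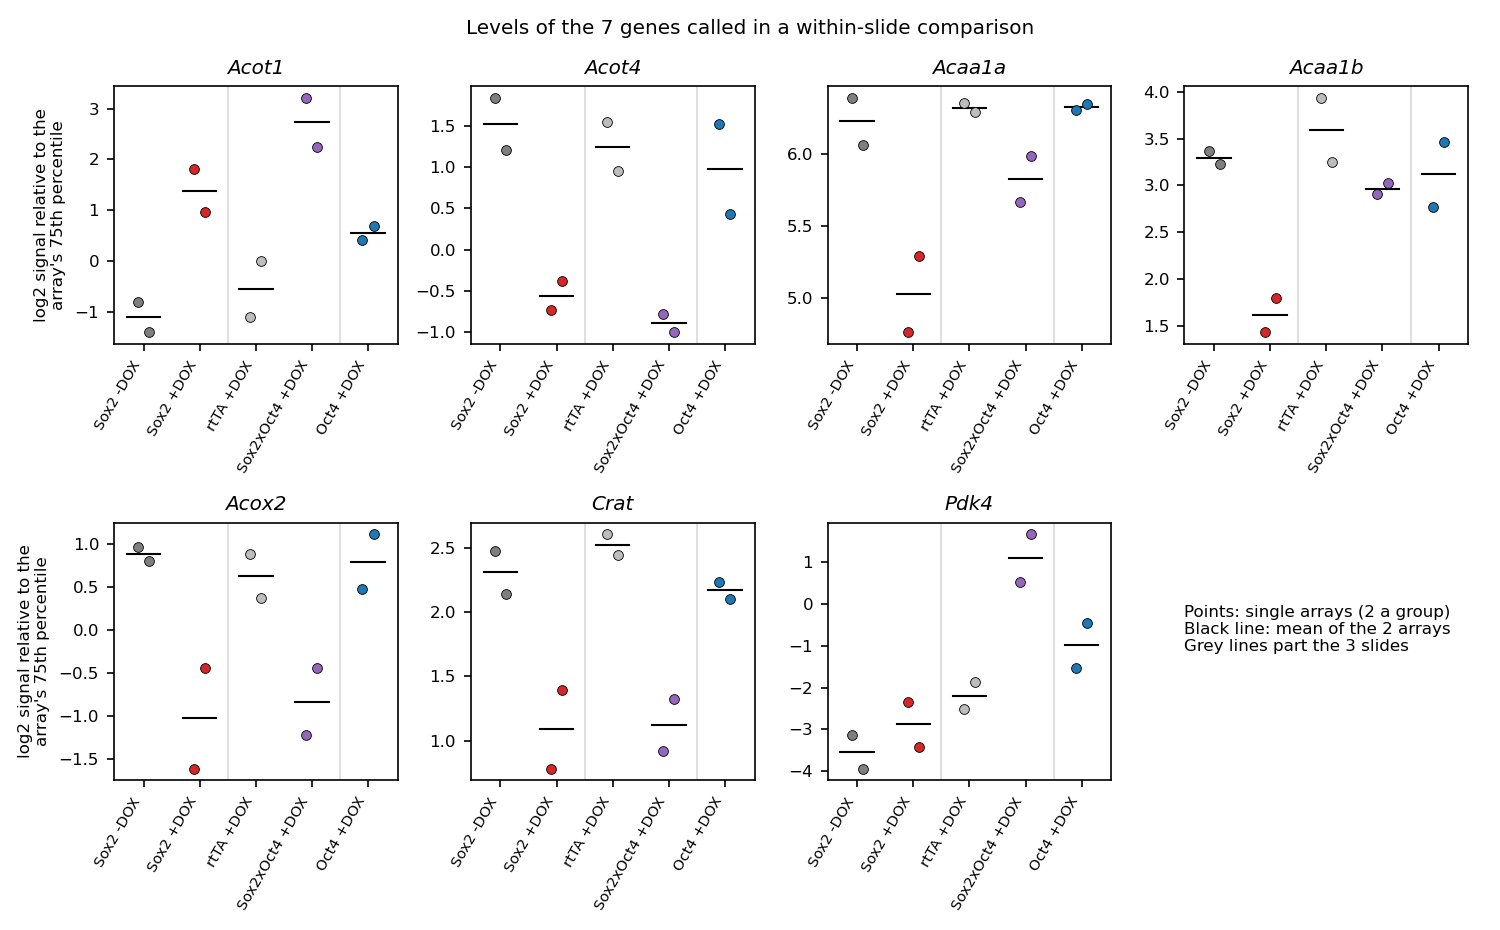
Levels of the 7 genes called in Sox2 +DOX against Sox2 -DOX or in Sox2xOct4 +DOX against rtTA +DOX, as log2 signal relative to the 75th percentile of the array, each panel on its own axis. Points are single arrays (2 per group), black lines their means and grey lines part the slides. Acot1 was higher and Acot4 lower on all 4 arrays with Sox2 induced than on the controls of their slide, and Pdk4 was high on the Sox2xOct4 +DOX arrays at 0.52 and 1.66.

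In the carnitine shuttle no gene passed the test. Crat, the acetyltransferase that balances acetyl-CoA with carnitine, came nearest, at 2.48 and 2.14 without DOX and 0.78 and 1.39 with it. The log2 change was -1.22 ± 0.31 (limma, adjusted p = 0.052), without overlap of the groups. Cpt1a, the rate-limiting acyltransferase of the outer membrane, had a log2 change of 0.42 ± 0.40, its inner-membrane partner Cpt2 one of -0.34 ± 0.27, and the carrier Slc25a20 between them one of -0.48 ± 0.42.

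In the mitochondrial spiral, 0 of 8 genes were called, with log2 changes from -0.88 to 0.50 and a median of -0.34. Hadh, the dehydrogenase for medium and short chains, had the smallest p of the 8. It stood at 5.21 and 4.55 without DOX and at 3.78 and 4.22 with it, a log2 change of -0.88 ± 0.32 (limma, adjusted p = 0.12). The acyl-CoA dehydrogenases for very long, medium and short chains (Acadvl -0.48 ± 0.28, Acadm -0.76 ± 0.41, Acads -0.56 ± 0.37) were lower on both Sox2 +DOX arrays than on either control array, and Acadl (-0.11 ± 0.45), for long chains, overlapped. The subunits of the trifunctional protein, Hadha and Hadhb, were at -0.21 ± 0.33 and -0.01 ± 0.28. The thiolase Acaa2 was the exception in direction, at 0.50 ± 0.28.

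The helper enzymes for unsaturated chains, the electron transfer genes and the ketone body genes had no call either. Decr1, the mitochondrial reductase, was at -1.19 and -1.01 without DOX and at -1.72 and -1.61 with it. Its log2 change was -0.56 ± 0.37, against 0.58 ± 0.43 for the isomerase Eci1 and 0.03 ± 0.32 for Ech1. Etfb, a subunit of the electron transfer flavoprotein, was at 5.78 and 5.62 without DOX and at 5.76 and 5.44 with it. Its change of -0.10 ± 0.31 was the one with the smallest p of its group, and Etfa (-0.01 ± 0.31) and Etfdh (0.09 ± 0.30) were as near to 0. These 3 genes overlapped between the groups.

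Oxct1, which lets tissues burn ketone bodies, stood at 6.31 and 6.22 without DOX and at 5.88 and 6.22 with it, and the groups overlapped. Its log2 change was -0.22 ± 0.29. Acat1, which joins and splits acetyl units in the ketone body route, was at 0.06 ± 0.33 and Bdh1, which interconverts the main ketone bodies, at -0.28 ± 0.40. Outside the spiral, Pdk4, the kinase that shuts pyruvate out of oxidation, was at -3.13 and -3.93 without DOX and -2.34 and -3.42 with it. Its log2 change of 0.65 ± 0.58 did not pass the test (limma, adjusted p = 0.50). Angptl4, a secreted inhibitor of lipoprotein lipase, had the widest error of the 35 genes, at -0.09 ± 0.74.

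Markers of several cell types moved in the same comparison, and sums are given here for the lower and the higher array of a group. The summed signal of 15 enterocyte and ileum markers, all well above background on all 10 arrays, was 1257 and 1469 times the 75th percentile of the array in Sox2 -DOX and 312 and 657 times in Sox2 +DOX, and 3 of the 15 fell. The sum over 10 adipocyte markers was 32.6 and 42.9 against 6.17 and 12.1, with 2 of 8 tested markers lower by the test and Adipoq, a defining marker of fat cells, at a log2 level of 0.30 and 0.64 against -2.89 and -3.14. For 8 smooth muscle markers it was 94.8 and 131 against 40.0 and 53.0, with none called. The sum over 8 squamous and stomach markers was 1.63 on both Sox2 -DOX arrays and 11.2 and 19.9 in Sox2 +DOX, and 4 of them rose. For 4 T cell markers it was 4.84 and 6.50 against 0.876 and 1.73, and for 4 B and plasma cell markers 44.4 and 104 against 21.8 and 51.0. For 5 stem and crypt markers it was 5.16 and 5.45 against 3.14 and 3.83, with 1 called lower and Lgr5 overlapping between the groups. For 3 goblet cell markers it was 340 and 388 against 225 and 299. The part of these cells in the changes of the 35 genes was not tested.

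The calls of this comparison changed with single arrays. None of the 35 genes was called when either Sox2 -DOX array or replicate 1 of Sox2 +DOX was left out, where the share of all genes called was 0.845 to 1.49%, and 3 were when 1 of the rtTA +DOX or Oct4 +DOX arrays was (5.32 to 6.86% of all genes). None was called in a fit to these 4 arrays alone (3.21% of all genes) or in the authors' normalized table of them (3.62%). With no filter on dim probes 2 were called, Acot1 and Acot4 (3.38% of all genes). The adjusted p over all alternatives ran from 0.013 to 0.18 for Acot1 and from 0.014 to 0.18 for Acot4. The call of Acaa1a was lost under 16 of 22 alternatives, quantile normalization and the mean of its probes among them (adjusted p up to 0.28), that of Acox2 under 11 and that of Acaa1b under 6.

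**Figure D2:**
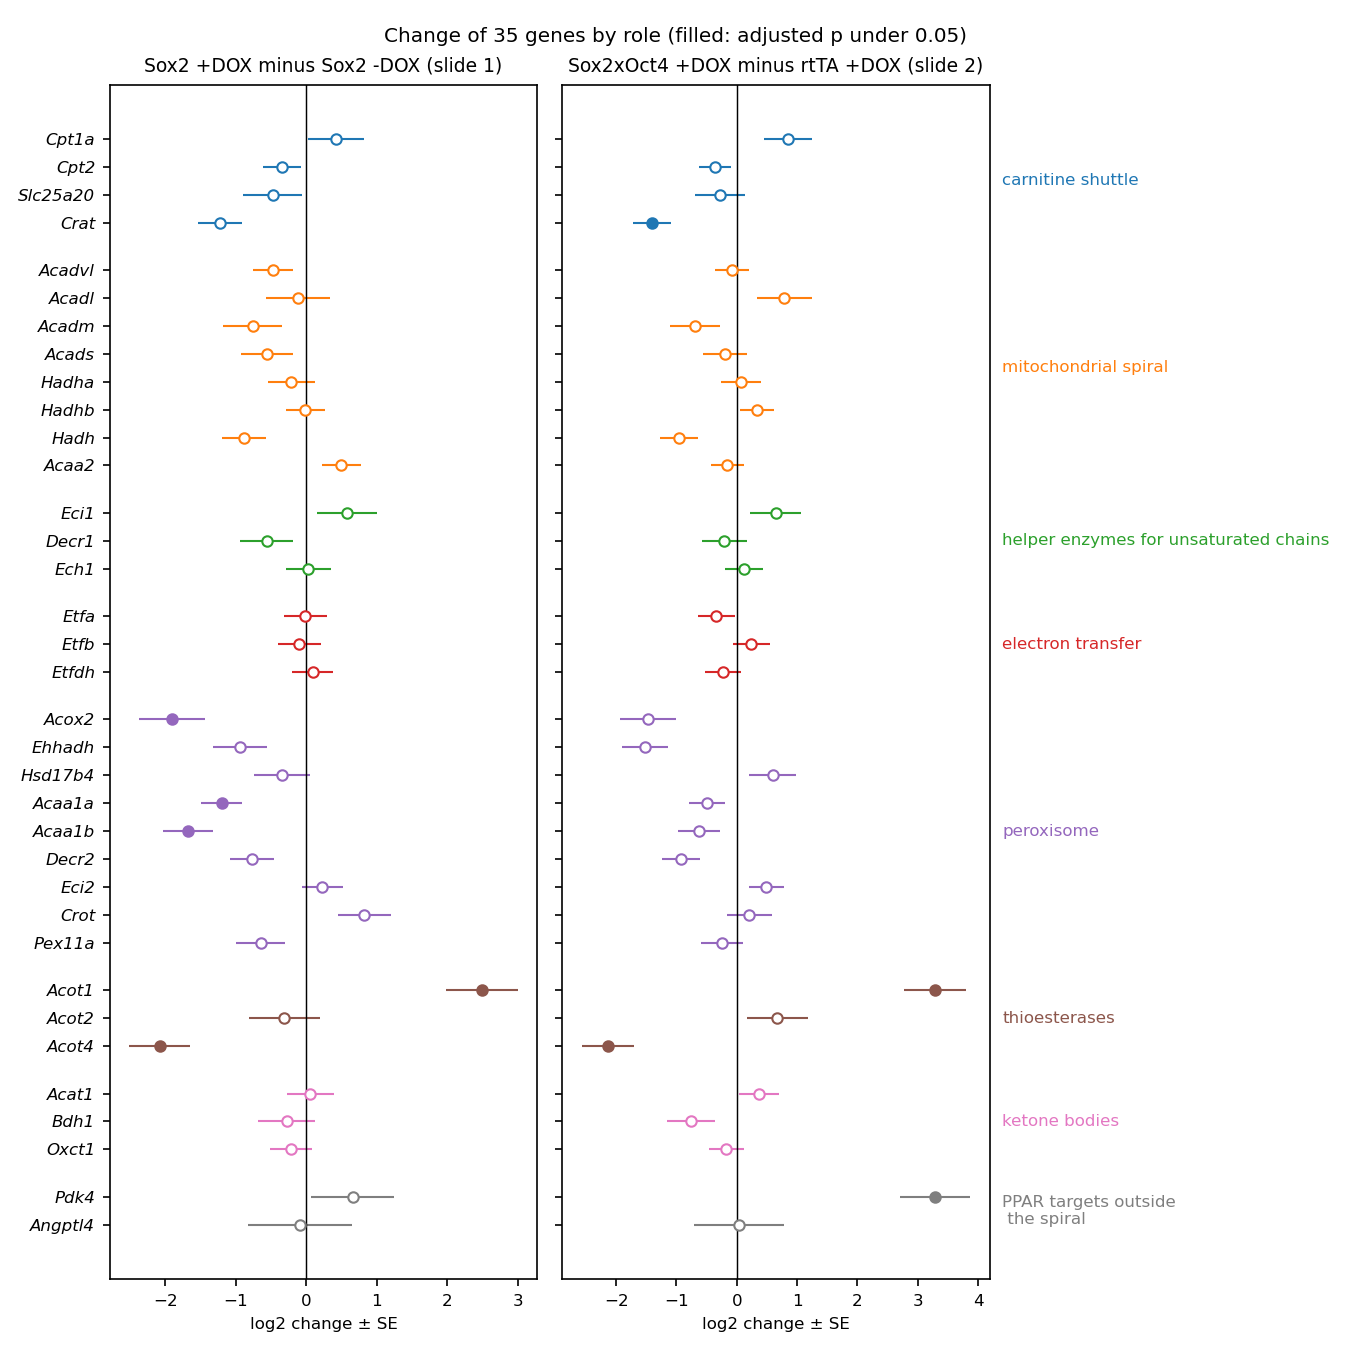
Log2 change with its standard error for the 35 genes, in blocks of 1 role, for Sox2 +DOX minus Sox2 -DOX (left) and Sox2xOct4 +DOX minus rtTA +DOX (right). Filled points had an adjusted p under 0.05 in limma. Acot1 lies at 2.49 and 3.29 and Acot4 at -2.08 and -2.14, and the mitochondrial spiral, helper, electron transfer and ketone body genes have open points on both sides.

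The second comparison, Sox2xOct4 +DOX against rtTA +DOX, lies within slide 2, with DOX in both groups and no array in common with the first. Acot1 rose 9.76-fold and Pdk4 9.76-fold, Acot4 fell 4.41-fold and Crat fell 2.65-fold. Acot4 is counted among the thioesterases, and none of the 9 genes counted under the peroxisome passed the test. No gene of the mitochondrial spiral, electron transfer or ketone body metabolism passed either. That is 2 of 35 genes up and 2 down, 11.4% against 6.34% of all genes tested (3.19% rose and 3.15% fell). Of the 7 genes called in either within-slide comparison, 2 (Acot1 and Acot4) were called in both in the same direction, and all 7 had the same sign in both. Over all genes called in either, 24.8% were called in both in the same direction and 86.7% had the same sign, against 28.6% and 100% of the 7.

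Acot1 stood at -1.11 and 0.00 on the rtTA +DOX arrays and at 3.21 and 2.25 on the Sox2xOct4 +DOX arrays, a log2 change of 3.29 ± 0.51 (limma, adjusted p = 0.012). Acot4 went from 1.55 and 0.95 to -0.78 and -1.0, a log2 change of -2.14 ± 0.43 (adjusted p = 0.028), and its second probe gave -2.04 (adjusted p = 0.032 with every probe tested by itself). Neither gene overlapped between the groups. Acot2 overlapped, with a log2 change of 0.67 ± 0.50.

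Pdk4 was at -2.52 and -1.87 in rtTA +DOX and at 0.52 and 1.66 in Sox2xOct4 +DOX, a log2 change of 3.29 ± 0.58 (limma, adjusted p = 0.020). Crat was at 2.61 and 2.44 against 0.92 and 1.32, a change of -1.40 ± 0.31 (adjusted p = 0.039). In both genes the 2 groups were apart. Cpt1a was above both controls on both arrays, at 3.995 and 2.90 against 2.64 and 2.55, but its replicates lay far apart and the change of 0.85 ± 0.40 did not pass (adjusted p = 0.24). Cpt2 (-0.36 ± 0.27) and Slc25a20 (-0.28 ± 0.42) did not pass either.

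Among the 9 peroxisomal genes the largest values were those of Ehhadh, at 2.68 and 1.85 against 0.74 and 0.75 (-1.52 ± 0.38, limma, adjusted p = 0.053), and of Acox2, at 0.89 and 0.38 against -1.22 and -0.45 (-1.47 ± 0.47, adjusted p = 0.11). Acaa1b, at 3.93 and 3.25 against 2.91 and 3.02 (-0.63 ± 0.35), and Acaa1a, at 6.35 and 6.29 against 5.67 and 5.99 (-0.49 ± 0.29), were lower without overlap and did not pass. Decr2 was also lower without overlap (-0.93 ± 0.31). The median of the 9 was -0.49, and 5 of them were lower and 2 higher without overlap, where 24.1% of all genes were lower and 28.7% higher. The 2 higher genes were Hsd17b4 (0.59 ± 0.39) and Eci2 (0.49 ± 0.29).

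The mitochondrial spiral had log2 changes from -0.96 to 0.79 with a median of -0.12, against 0.07 over all genes. Hadh was again its lowest gene, at 4.99 and 4.70 in rtTA +DOX and 3.85 and 3.92 in Sox2xOct4 +DOX (-0.96 ± 0.32, limma, adjusted p = 0.11). Acadl was its highest (0.79 ± 0.45), with 3.46 and 1.96 on the Sox2xOct4 +DOX arrays. Of the other roles, changes were -0.21 to 0.64 for the helper enzymes, -0.34 to 0.24 for electron transfer and -0.76 to 0.37 for the ketone body genes. Angptl4 overlapped between the groups (0.04 ± 0.74).

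The Sox2xOct4 +DOX arrays differed from each other in markers. The adipocyte sum was 7.98 and 67.0 on them, against 23.2 and 43.0 in rtTA +DOX, and Adipoq, Plin1, Cfd and Retn were not well above background on replicate 1. The smooth muscle sum was 38.1 and 325 against 110 and 232, with none of these markers called. The enterocyte and ileum sum was 481 and 977 against 918 and 1437. These sums overlapped, but 2 of the 15 enterocyte and ileum markers fell, and the median log2 change of the 15 was -1.10. The squamous and stomach sum was 14.4 and 27.5 against 1.83 and 2.38, and 3 of the 8 markers rose. The sum was lower without overlap for T cell markers (1.27 and 1.86 against 2.43 and 4.75), B and plasma cell markers (16.5 and 24.8 against 46.4 and 51.2) and stem and crypt markers (4.28 and 5.21 against 5.74 and 7.002, 1 of 5 fell). Of the stem and crypt markers, Ascl2, Olfm4 and Axin2 were lower without overlap and Smoc2 overlapped. The stem cell marker Lgr5 went the other way, at 1.427 and 1.555 against 0.124 and -0.144, and was not called. Acot1 and Pdk4 were above both rtTA +DOX arrays on each Sox2xOct4 +DOX array, also on replicate 1. The part of these cells in the changes was not tested. Without single arrays the 35 genes gave 0 calls (without rtTA +DOX replicate 1), 1 (Acot1, without rtTA +DOX replicate 2), 1 (Pdk4, without Sox2xOct4 +DOX replicate 1) or 2 (Acadl and Acot1, without Sox2xOct4 +DOX replicate 2), and a fit to the 4 arrays alone called 1, Pdk4. The share of all genes called was 0.551, 1.08, 1.89 and 5.65% without these arrays in turn and 2.48% in that fit. The call of Crat was lost under 12 of 21 alternatives (adjusted p up to 0.23), among them quantile normalization, no filter and leaving out either Oct4 +DOX array.

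**Figure D3:**
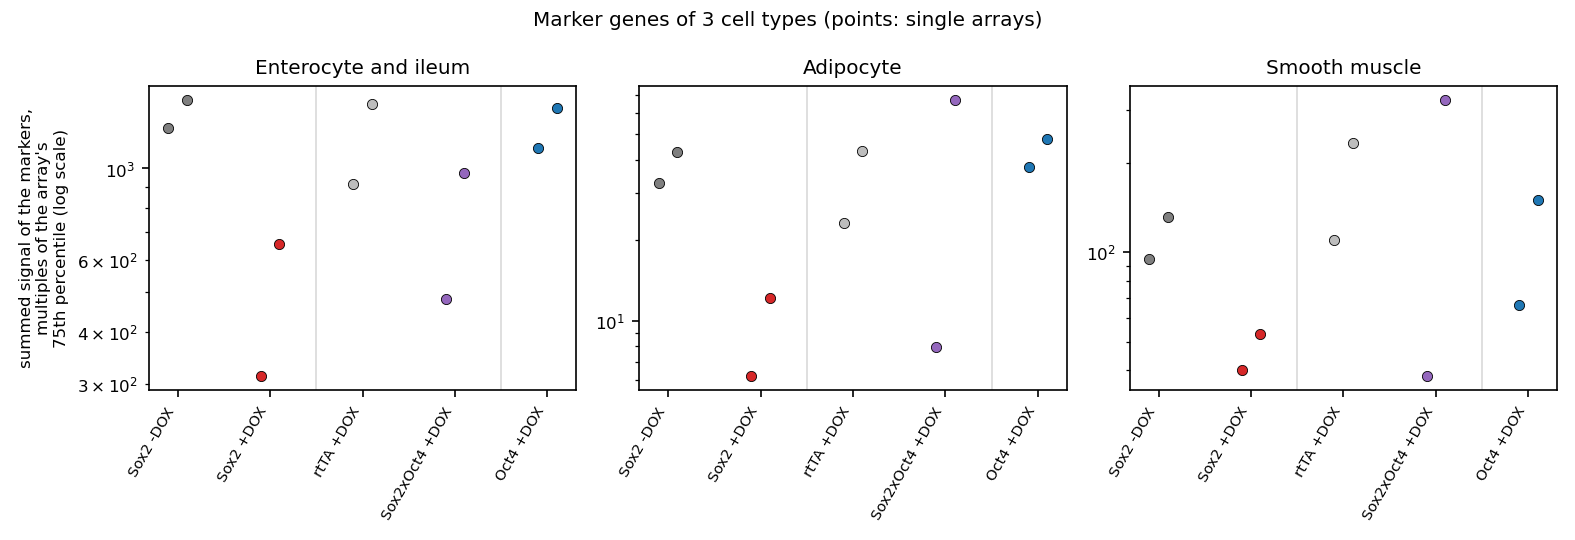
Summed signal of marker genes of 3 cell types on each array, in multiples of the 75th percentile of the array on a log axis, with the lower array of each group drawn at the left. The enterocyte and ileum sum was 312 and 657 in Sox2 +DOX against 1257 and 1469 in Sox2 -DOX, and the adipocyte and smooth muscle sums differed most between the arrays of Sox2xOct4 +DOX.

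The difference between the 2 within-slide responses was tested itself. It is not that of Oct4 alone, since only the first response includes DOX and sucrose, and the controls differ in genotype, sex and slide. None of the 35 genes passed in limma, where 0.168% of all genes did. At an unadjusted p under 0.05 there was 1 of the 35, against 9.61% of all genes. It was Pdk4, whose response was lower by 2.63 ± 0.82 on the log2 scale in the first comparison than in the second (limma, adjusted p = 0.33). Acot1 differed by -0.80 ± 0.72, Acot4 by 0.06 ± 0.61, Acaa1b by -1.05 ± 0.50 and Acaa1a by -0.71 ± 0.42, all with adjusted p of 0.57 or more. Acaa2 was higher without overlap in the first comparison and lower in the second, and Hsd17b4 the reverse. The differences of their responses were 0.65 ± 0.39 (adjusted p = 0.68) and -0.94 ± 0.55 (adjusted p = 0.66).

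Oct4 +DOX was compared with rtTA +DOX across slides. No gene of the 35 passed the test in limma, where 1.01% of all genes did, and 4 were higher and 1 lower at an unadjusted p under 0.05, against 13.3% of all genes. The 4 were Slc25a20 at 2.14 and 2.99 against 1.58 and 0.78 (1.39 ± 0.42), Acadl at 2.98 and 3.15 against 2.07 and 1.78 (1.14 ± 0.45), Hadhb at 4.53 and 5.02 against 3.72 and 3.88 (0.97 ± 0.28) and Hsd17b4 at 4.60 and 5.73 against 4.30 and 4.12 (0.96 ± 0.39). Ehhadh was the lower one, at 1.41 and 1.35 against 2.68 and 1.85 (-0.89 ± 0.38). Of the 35 genes, 17 were higher and 8 lower without overlap, against 22.8% and 23.5% of all genes, and the median log2 change was 0.31 against 0.01. That median was 0.53 without Oct4 +DOX replicate 1 and 0.12 without replicate 2, and leaving out rtTA +DOX replicate 2 gave 0.21. The slide and the sex of the animals differed as well and cannot be told apart from Oct4.

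Acot1 was at 0.40 and 0.69 in Oct4 +DOX, above both rtTA +DOX arrays, with a log2 change of 1.101 ± 0.51 (limma, adjusted p = 0.40). Pdk4 was at -1.53 and -0.46, a change of 1.20 ± 0.58 (adjusted p = 0.43). Acot4, at 1.52 and 0.44, overlapped with the controls (-0.27 ± 0.43), and so did Acox2 at 0.48 and 1.12, Acaa1a at 6.31 and 6.35 and Acaa1b at 2.77 and 3.47. Crat was at 2.23 and 2.11, a change of -0.35 ± 0.31. The enterocyte and ileum sum in Oct4 +DOX was 1121 and 1407, against 918 and 1437 in rtTA +DOX. Sums lower without overlap were those of T cell markers (1.02 on both arrays against 2.43 and 4.75) and B and plasma cell markers (15.0 and 16.2 against 46.4 and 51.2). The stem and crypt sum was lower without overlap as well (2.70 and 2.81 against 5.74 and 7.002). For 4 liver markers the sum was higher without overlap (0.221 and 0.321 against 0.104 and 0.184), and 1 of them rose. Of the 8 squamous and stomach markers, 2 rose. The part of these cells was not tested.

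Sox2 +DOX was also set against rtTA +DOX, across slides and with arrays that the other comparisons share. Here 0 of 35 genes rose and 4 fell, 11.4% against 8.38% of all genes tested (3.23% rose and 5.14% fell). They were Acaa1b (-1.97 ± 0.35, adjusted p = 0.016), Crat (-1.44 ± 0.31, adjusted p = 0.031), Acaa1a (-1.30 ± 0.29, adjusted p = 0.035) and Acot4 (-1.81 ± 0.43, adjusted p = 0.040), by limma. Acot1 was at 1.94 ± 0.51 (adjusted p = 0.053) and Acox2 at -1.66 ± 0.47 (adjusted p = 0.065). At most Acaa1b was still called without Sox2 +DOX replicate 1, either rtTA +DOX array or either Sox2 -DOX array, in fits that leave 1 array in a group. Fewer genes were called over all genes in these fits too. With no filter on dim probes 1 of the 35 was called, Acaa1b, where 3.79% of all genes were. A fit to the 4 arrays alone also called only Acaa1b, with 4.9% of all genes.

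The controls, rtTA +DOX against Sox2 -DOX, differed in genotype, DOX, sex and slide. None of the 35 genes passed in limma, nor did any other gene (0% of all tested), and none of the 35 had an unadjusted p under 0.05, against 5.61% of all genes. The median log2 change of the 35 was 0.06. The largest values were those of Pdk4 (1.34 ± 0.58) and Angptl4 (1.13 ± 0.74), and Acot1 was at 0.55 ± 0.51 and Acot4 at -0.28 ± 0.43.

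**Figure D4:**
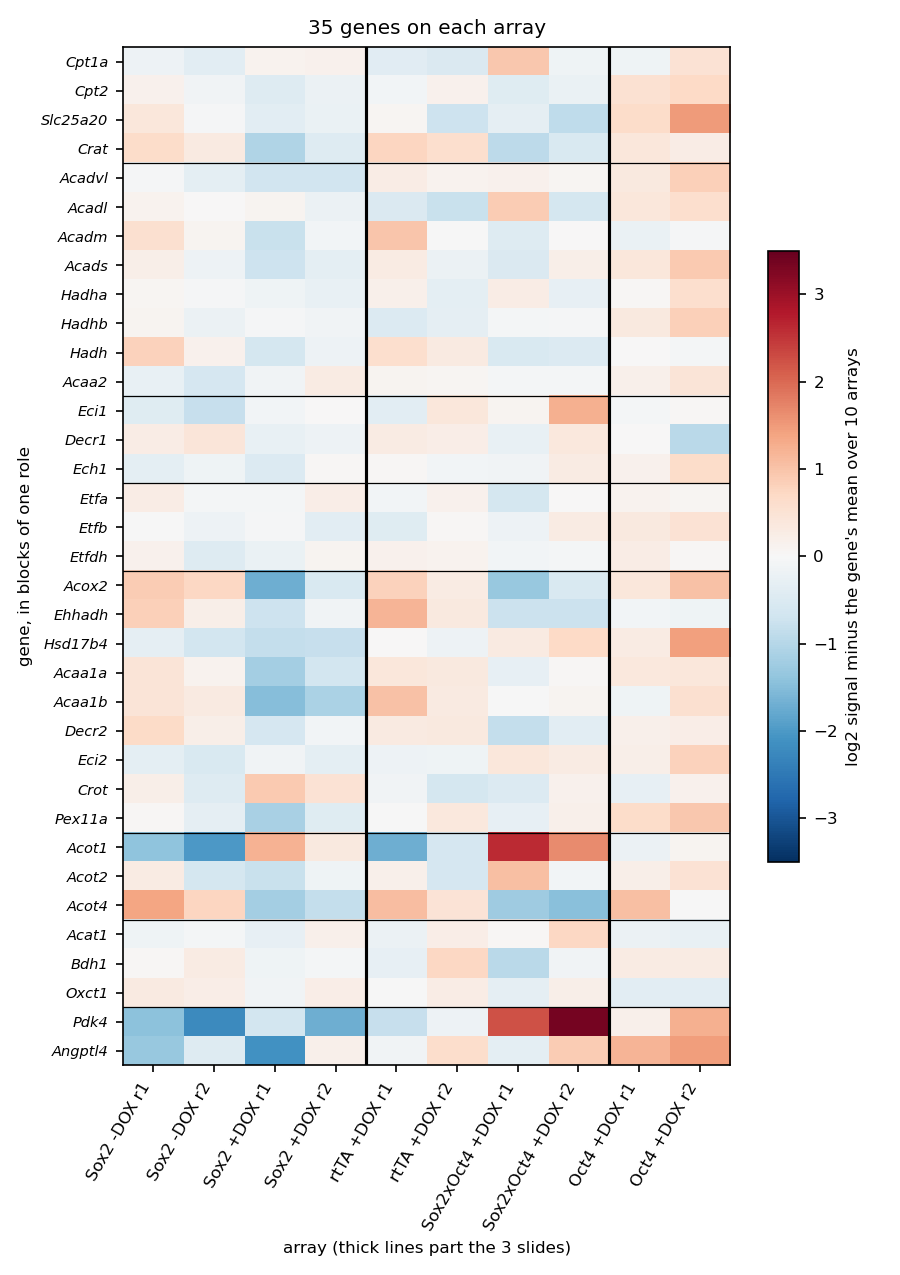
Log2 signal of the 35 genes on each of the 10 arrays minus the mean of the gene over the arrays (colour), with genes in blocks of 1 role and thick lines between slides. Acot1 is low on the 4 control arrays and high on the arrays with Sox2 induced, and Acot4 is the reverse.

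Another 67 gene names of the pathway were listed, of which 66 were on the array and 62 were tested. In Sox2 +DOX against Sox2 -DOX 1 rose and 9 fell, 16.1% against 7.82% of all genes. Acot12, an acetyl-CoA thioesterase, rose from -4.89 and -4.09 to -0.43 and 0.53, a log2 change of 4.54 ± 0.86 (limma, adjusted p = 0.021). In rtTA +DOX, which also had DOX, it was at -2.43 and -0.38, and Sox2 +DOX overlapped with that group (1.46 ± 0.86, adjusted p = 0.30). Vnn1, a pantetheinase known as a PPAR alpha target, fell from 4.03 and 3.17 to -0.96 and 0.28 (-3.94 ± 0.51, adjusted p = 0.0058). Fabp1, a fatty acid binding protein of enterocytes and liver (-3.10 ± 0.67), Slc27a4, a fatty acid transporter (-3.02 ± 0.63), Creb3l3, a membrane-bound transcription factor of lipid metabolism (-1.92 ± 0.37), Rxra, the partner of PPAR alpha (-1.66 ± 0.33), and the carnitine transporter Slc22a5 (-1.61 ± 0.33) fell too.

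The remaining 3 falls were those of Acsl6, Cpt1b and Acox3, the last 2 named after their values were seen. Acsl6, an acyl-CoA synthetase, was not well above background on either Sox2 +DOX array, nor on 1 of the 2 Sox2 -DOX arrays, so no size is given for its fall (limma, adjusted p = 0.027). Cpt1b, the muscle form of the outer shuttle enzyme, fell by 1.68 on the log2 scale, and Acox3, a peroxisomal oxidase, by 1.26. These falls went with the drop in the enterocyte, adipocyte and smooth muscle sums given above, and the part of those cells was not tested. The calls among the 62 changed with single arrays, in fits that leave 1 array in a group. Without either Sox2 -DOX array or Sox2 +DOX replicate 1, at most Vnn1 was still called, and most calls over all genes were lost too. More genes were called without Sox2 +DOX replicate 2, among the 62 and over all genes. Those of the 62 were then all lower, and Acot12 was not among them.

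Of the regulators, Rxra and Creb3l3 fell in that comparison as given above, and Ppara, Ppargc1a, Hnf4a, Ppard and Pparg did not pass the test. Ppara, the gene of PPAR alpha, was at 0.91 and 1.13 without DOX and at -1.55 and 0.95 with it, a log2 change of -1.32 ± 0.75 (limma, adjusted p = 0.29). Its coactivator Ppargc1a was at -1.56 ± 0.45 (adjusted p = 0.071) and Hnf4a, a factor of the enterocyte and liver programme, at -1.19 ± 0.44 (adjusted p = 0.13). Ppard and Pparg, the other PPAR genes, were at 0.62 ± 1.00 and 0.00 ± 0.30. Ppara, Ppargc1a and Hnf4a were called lower when Sox2 +DOX replicate 2 was left out, a fit with 1 array in that group and more calls over all genes.

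In Sox2xOct4 +DOX against rtTA +DOX 3 of the 62 rose and 4 fell, 11.3% against 6.34% of all genes. Cd36, Acacb and Acsl5 were named after their values were seen. Cd36, a fatty acid uptake receptor, rose by 3.32 ± 0.48 (limma, adjusted p = 0.010) and Acacb, which makes the malonyl-CoA that inhibits the shuttle, by 1.96 ± 0.38 (adjusted p = 0.025). Vnn1 (-3.03 ± 0.51), Slc27a4 (-2.65 ± 0.63), the acyl-CoA synthetase Acsl5 (-1.40 ± 0.27) and Pparg (-1.39 ± 0.30, from 0.96 and 1.12 to -0.44 and -0.27) fell. The calls among the 62 changed when 1 array was left out, and in 1 such fit there were more than with all arrays. Most were lost without either rtTA +DOX array or Sox2xOct4 +DOX replicate 1, and so were most calls over all genes. In the fit to all arrays, Ppara was at -1.54 ± 0.75, Hnf4a at -1.54 ± 0.44, Ppargc1a at -1.08 ± 0.45 and Ppard at -0.77 ± 1.00, none of them called.

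Cd36 and Acacb rose in Oct4 +DOX against rtTA +DOX as well, by 2.67 ± 0.48 and 2.10 ± 0.38 (limma, both adjusted p = 0.047), the only calls among the 62 in that comparison, which shares its controls with the previous one and crosses slides. Neither was called when an array of rtTA +DOX, Oct4 +DOX or Sox2 -DOX was left out, nor with no filter or in a fit to the 4 arrays alone. In Sox2 +DOX against Sox2 -DOX these genes were at -1.32 ± 0.48 (adjusted p = 0.13) and -1.004 ± 0.38 (adjusted p = 0.14). Sox2 +DOX against rtTA +DOX had 9 of the 62 lower and none higher, 14.5% called against 8.38% of all genes (3.23% rose and 5.14% fell). Most of these 9 calls, like most over all genes, were lost without Sox2 +DOX replicate 1 or either rtTA +DOX array. In rtTA +DOX against Sox2 -DOX there was no call, among the 62 or over all genes. The difference between the within-slide responses was -4.65 ± 0.68 for Cd36 (limma, adjusted p = 0.054) and -2.97 ± 0.53 for Acacb (adjusted p = 0.11). Cd36 passed without Sox2xOct4 +DOX replicate 1 and Acacb without replicate 2.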

How the data were processed

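RNA from mouse ileum was measured on 10 one-colour Agilent arrays, grouped by the transgene and DOX labels. Per the file headers, the deposited scanner files hold intensity values that the authors obtained with Agilent Feature Extraction 9.5.3.1 (slide 1), 10.7.1.1 (slide 2) and 10.7.3.1 (slide 3), background-subtracted and not normalized between arrays. The submitters' processing notes name version 9.1. A deposited signal table of the authors' normalized values covers the 4 TetON-Sox2 arrays, and how they were normalized is not stated.

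Outlier spots were left out, spots of a probe averaged (41143 of 41174 probes), log2 taken and the 75th percentile of each array subtracted. A probe was kept where both arrays of some group had it well above background (28752 probes), and the brightest stood for its gene. RefSeq tables gave the name of 80.2% of probes, and the others keep that of the array design. The comparisons are contrasts in limma 3.58.1 (R 4.3.3), fitted to all 10 arrays with a mean for each of the 5 groups (5 residual and 3.30 prior degrees of freedom). P-values were adjusted over all genes, and a gene was called at an adjusted p under 0.05. Log2 changes had a median standard error of 0.39, and the number of arrays limits the precision. Probe coordinates are on build mm8.

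The 35 genes, their roles and all lists were chosen with earlier results of these data known. All 35 genes could be named. Values per array are given for those called in any comparison and for the 1 of each role with the smallest p in Sox2 +DOX against Sox2 -DOX, and those of Cpt1a, Ehhadh, Slc25a20, Acadl, Hadhb and Hsd17b4 were added after their values were seen. Of the other pathway genes, the 8 with the smallest p there and Ppara, Ppard, Pparg, Ppargc1a and Hnf4a were named, and any further name is marked. The values of 1 other gene counted among them are not reported here. The scripts were tested on simulated data. Alternatives were normexp (offset 50) before quantile normalization, the latter by itself, no filter, the mean of the probes of a gene, every probe by itself, a variance trend, a floor, a fit to the 2 groups of a comparison, replicate number or slide as a block, each array left out and the authors' table. A fit without Oct4 +DOX and a crossed block were chosen after seeing the data. Figures were drawn with matplotlib 3.10.9 (Python 3.11.15).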

Additional observations from a re-analysis of the deposited data

How the results depend on the processing

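No called gene of the 35 changed direction under any alternative run, but many of the alternatives could not change it. The groups did not overlap in any of these genes, so leaving out 1 array cannot reverse them. A variance trend, a block or a fit to the 2 groups alone leaves the log2 change as it is. In Sox2 +DOX against Sox2 -DOX, where 5 of the 35 genes were called, 0 were called in a fit to only the groups compared and 0 in the authors' normalized table, 2 with no filter on dim probes and 3 in the fit without Oct4 +DOX. Leaving out 1 array at a time gave 0 to 6. In Sox2xOct4 +DOX against rtTA +DOX (4 called) only the groups compared gave 1, and leaving out 1 array gave 0 to 4. In Sox2 +DOX against rtTA +DOX (4 called) no filter gave 1 and only the groups compared 1, and leaving out 1 array gave 0 to 5. The counts of 0 in the other comparisons and in the difference of the responses stayed 0. Quantile normalization moved the median of all genes in Sox2 +DOX against Sox2 -DOX from -0.10 to 0.00, and that of the 35 genes from -0.28 to -0.14. With normexp and quantile normalization, the calls over all genes there were 940 higher and 969 lower, against 578 and 911.

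The titles do not state that replicate numbers pair the samples. Deviations of same-numbered arrays correlated at 0.05 in the groups of the first comparison and 0.24 in those of the second. The correlation was -0.13 between Sox2 +DOX and rtTA +DOX and highest, at 0.275, between Oct4 +DOX and Sox2xOct4 +DOX. With 2 arrays per group these values cannot decide whether samples were paired. With the replicate number as a block the counts were 4, 4 and 4 (7.74, 6.3 and 8.76% of all genes), with Acaa1a lost in Sox2 +DOX against Sox2 -DOX. With the numbers crossed for Sox2 +DOX against rtTA +DOX the count was 4 (7.75% of all genes). The slide as a block left 5 and 4 calls in the within-slide comparisons, which it cannot change, and it could not be fitted between slides. Where an array was left out, its group's remaining array took its spread from the rest of the arrays. With 2 arrays per group, a gene without a call is not shown to be unchanged.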
